A study of Mus musculus with 18 samples.

Results

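The genes described here are 10 genes of the cartilage extracellular matrix and its regulation, measured by RNA-seq in whole embryonic lungs: Col2a1, Col9a1, Col9a2, Col9a3, Col11a1, Col11a2, Acan, Matn1, Hapln1 and Sox6. They were taken by symbol from tables of 23420 rows each, and all 10 symbols were found in every table. Mouse lungs were collected at 14.5 days post coitus (dpc) from 3 lines, with 3 control and 3 deficient samples in each line and 18 samples in all. Deficient lungs were Rptorf/f; ShhCre/+, Tfamf/f; ShhCre/+ or Cox10f/f; ShhCre/+, and their littermate controls were Rptorf/+; ShhCre/+, Tfamf/+; ShhCre/+ or Cox10f/+; ShhCre/+. Controls therefore also carried the Shh-Cre allele and a single floxed allele of the gene. Shh-Cre removes floxed sequence in the lung epithelium, so the mesenchyme, from which airway cartilage forms, was not the target of deletion. Rptor encodes a subunit of mTOR complex 1, Tfam a factor that maintains mitochondrial DNA, and Cox10 an assembly enzyme of cytochrome c oxidase. The comparison asks how whole-lung levels of these genes differ when the epithelium is altered. Which cells of the lung held their RNA was not measured.

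Cartilage rings and plates hold the trachea and main bronchi open. Chondrocytes build their matrix on fibrils in which type II collagen, a trimer of the Col2a1 product, is copolymerised with type XI collagen, whose chains are encoded by Col11a1, Col11a2 and Col2a1. Type IX collagen, assembled from the products of Col9a1, Col9a2 and Col9a3, coats the fibril surface. Aggrecan (Acan) binds hyaluronan through link protein (Hapln1) and holds water, matrilin 1 (Matn1) bridges matrix components, and Sox6 acts with Sox5 beside Sox9 to switch on the collagen genes. Several of these genes are also used outside cartilage, Col11a1, Hapln1 and Sox6 among them.

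In short, the collagen genes did not move as a block. Col11a2 was lower in the deficient lungs of each of the 3 lines, Col2a1 was lower in the Rptor and Tfam lines, and Col9a2 was higher in the same lines, while its partner genes Col9a1 and Col9a3 were lower or passed no test. Hapln1, Sox6 and Col11a1 passed no test in any line. Acan and Matn1 were near the lowest countable level. The whole lung was sampled, so fewer cells of a type and less RNA per cell cannot be told apart in any of these values.

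The promoters of the type XI pair are shown because Col11a1 and Col11a2 encode chains of a single collagen and differed in response. Each sequence is the 250 bases before the RefSeq start of the gene, 5′ to 3′ on the strand of the gene (GRCm38.p6). For Col11a1 this is also the start in the GENCODE annotation, whereas the GENCODE start of Col11a2, given with its values, lies further downstream. Capitals mark the GC box GGGCGG, the TATA box TATAAA and the CCAAT box on either strand. The letters of SOX binding sites searched for, ACAAT and also ACAAAG, were in neither window.
Col11a1, chr3:114030290-114030539, plus strand: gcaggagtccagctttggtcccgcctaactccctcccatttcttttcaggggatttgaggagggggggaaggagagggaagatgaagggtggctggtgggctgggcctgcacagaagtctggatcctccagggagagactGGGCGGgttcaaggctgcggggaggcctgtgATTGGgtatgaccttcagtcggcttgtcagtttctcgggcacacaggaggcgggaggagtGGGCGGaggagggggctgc
Col11a2, chr17:34038888-34039137, plus strand: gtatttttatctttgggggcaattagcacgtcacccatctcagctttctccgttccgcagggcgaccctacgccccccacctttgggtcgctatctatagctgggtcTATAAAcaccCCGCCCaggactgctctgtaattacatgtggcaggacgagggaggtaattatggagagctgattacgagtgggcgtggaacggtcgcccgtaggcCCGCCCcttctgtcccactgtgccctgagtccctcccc
Both windows held 2 GC boxes. The Col11a2 window held 1 TATA box and no CCAAT box, and the Col11a1 window held 1 CCAAT box and no TATA box. Neither window overlapped an exon of the annotation, and no marked motif overlapped another. Of all 32851 RefSeq windows of this length, 32.7% held a GC box, 12.4% a TATA box, 33.9% a CCAAT box, 27.7% ACAAT and 16.5% ACAAAG. CpG dinucleotides numbered 7 before Col11a1 and 14 before Col11a2, against a median of 6 over all windows. These matches describe letters and not bound sites.

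The deposited values are normalised read counts, that is, the reads of a gene over the size factor of its sample. They summed to between 27727202 and 29611064 per sample, and replicates of a group had a Pearson r of 0.991 to 0.995 over log2 values of all genes. The targeted genes passed no test in their own lines, where the log2 fold change was -0.066 ± 0.083 (SE) for Rptor, -0.12 ± 0.079 for Tfam and -0.0055 ± 0.070 for Cox10. These gene-level values cover epithelium and mesenchyme together and do not check the genotype labels. A gene was tested in a line when its value reached 10 in at least 3 of 6 samples, and it is said to have risen or fallen at an adjusted p below 0.05 (limma on log2(value + 1), Benjamini-Hochberg over all genes tested in the line). A log2 fold change is given as deficient minus control. All tests were two-sided.

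**Figure D1:**
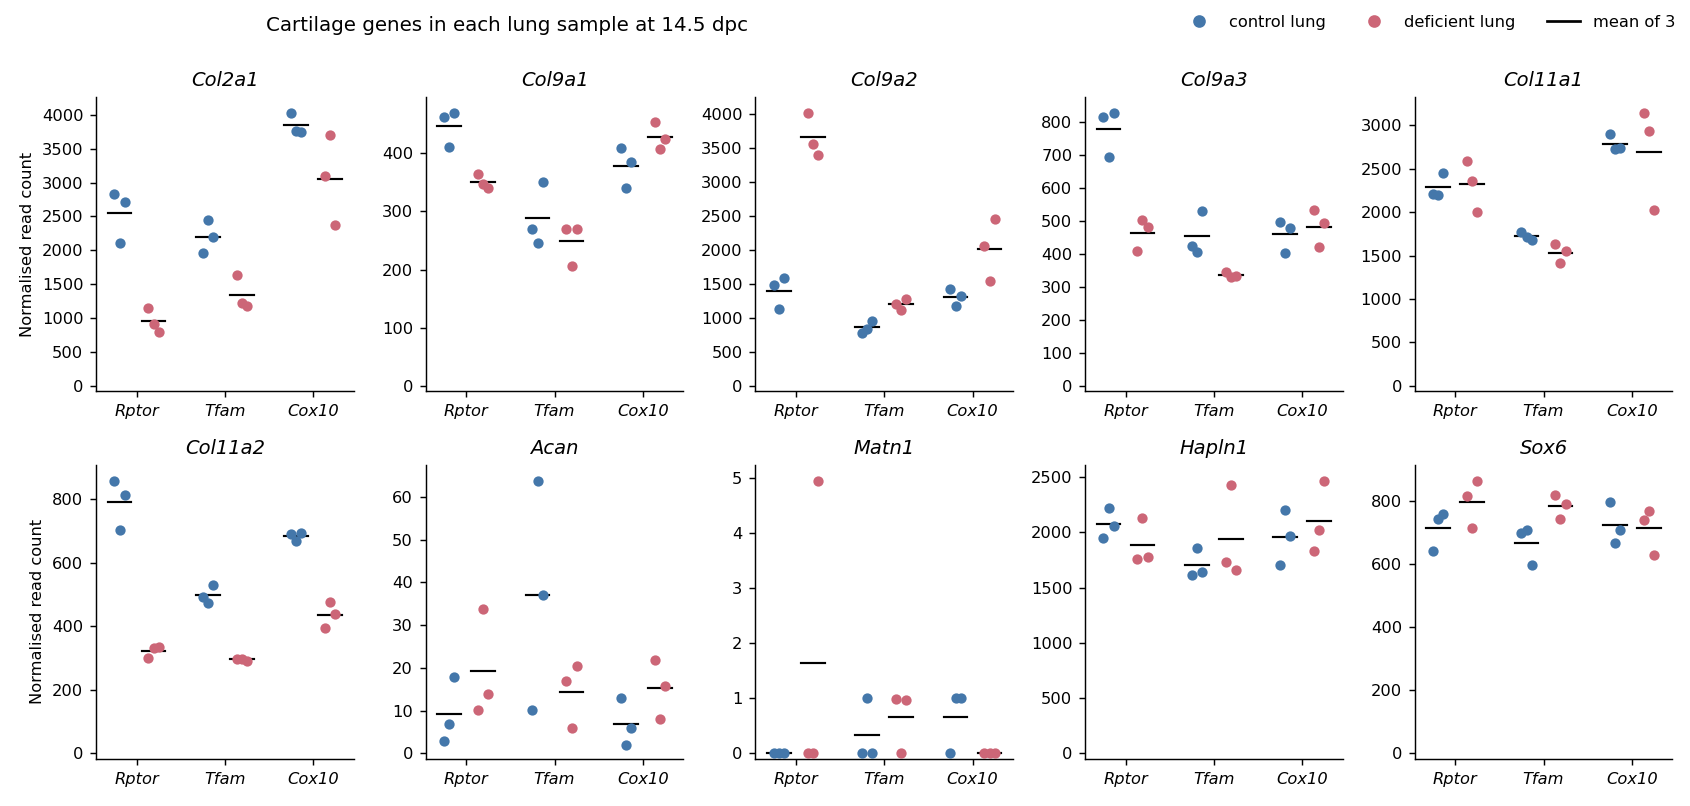
Normalised read count (vertical axes, linear, each from 0) of the 10 genes in each of 18 lungs, by line, with control lungs in blue, deficient lungs in red and the mean of 3 as a bar. Col2a1 and Col11a2 lay lower in the deficient lungs of every line, Col9a2 lay higher, and Acan and Matn1 stayed at or below 63.7.

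Levels of different genes were compared per kilobase of annotated exon, within the control lungs of a line. In Rptor controls Col9a2 was the highest of the 10 at 453 ± 78.97 normalised reads per kb (SD, n = 3), followed by Hapln1 at 352 ± 23.4, and the samples of these neighbours overlapped. Col2a1 came next at 276 ± 42.1, then Col9a3 at 202 ± 19.1 and Col11a1 at 179 ± 10.9, which overlapped each other, and then Col11a2 at 115 ± 11.5, Col9a1 at 88.3 ± 6.18 and Sox6 at 48.2 ± 4.25. In Tfam controls Hapln1 (289 ± 22.8), Col9a2 (278 ± 27.9) and Col2a1 (238 ± 26.2) overlapped at the top. In Cox10 controls Col9a2 (422 ± 42.1) and Col2a1 (416 ± 16.4) overlapped above Hapln1 (332 ± 42.1). The last places were the same in all 3 lines, in the order Col11a2, Col9a1, Sox6, Acan and Matn1, with overlap only between Acan and Matn1 in Cox10 controls. The 3 tables were normalised separately, so levels were not tested between lines.

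The name of the list was only partly borne out by the markers of mature cartilage. Acan, which encodes the main proteoglycan of cartilage, had 1.24 ± 1.03, 4.95 ± 3.58 and 0.933 ± 0.737 normalised reads per kb in Rptor, Tfam and Cox10 controls, far below the collagen genes. Matn1 was at 0 in 12 of 18 samples and had 10 reads in all 18 together. Some other cartilage genes were also low, of which 3 were singled out after their values were seen. Comp lay between 3.00 and 16.0 normalised reads in any sample, Ucma between 0 and 2.97, and Col10a1, the collagen of hypertrophic chondrocytes, between 0 and 6.06. Other matrix genes were well measured, with control means in the Rptor line of 1004 for Matn4 and 263 for Cnmd. The 10 genes are called cartilage genes below only for what their products are known to do.

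Col2a1 (chr15:97975602-98004695, minus strand, GRCm38) encodes the chain of type II collagen, the main fibril of cartilage. In the Rptor line its normalised read count was 2838, 2112 and 2715 in controls and 1149, 914 and 794 in deficient lungs. The groups were far apart, and the gene fell to 0.373 of its control mean, with a log2 fold change of -1.43 ± 0.15 (SE) and adjusted p = 0.000355. Tfam controls had 1957, 2442 and 2191 and Tfam-deficient lungs 1637, 1223 and 1175. It fell here too, without overlap, by a log2 fold change of -0.72 ± 0.12 (SE) (adjusted p = 0.00596). Cox10 controls had 4021, 3765 and 3753, and the Cox10-deficient lungs had 3092, 3709.6 and 2376. All 3 deficient values lay below the controls, replicate 2 only narrowly, and the log2 fold change of -0.35 ± 0.14 (SE) did not pass the test (adjusted p = 0.359) and ran from -0.50 to -0.18 without 1 sample.

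Col11a2 (chr17:34039437-34066685, plus strand), a chain gene of type XI collagen, was the only one of the 10 that passed the test in all 3 lines. Rptor controls had 858, 704 and 815 normalised reads and Rptor-deficient lungs 301, 331 and 335. The fall was to 0.407 of the control mean (log2 fold change -1.29 ± 0.099 (SE), adjusted p = 8.73e-05). In Tfam controls the values were 494, 475 and 531, and in Tfam-deficient lungs 299, 298 and 291. The deficient samples lay within 8 reads of each other and the log2 fold change was -0.75 ± 0.082 (SE) (adjusted p = 0.000410). Cox10 controls had 689.8, 668 and 696 and Cox10-deficient lungs 394, 478 and 438. The groups did not overlap, with a log2 fold change of -0.65 ± 0.086 (SE) and adjusted p = 0.0283. This last call was lost when any 1 of the 3 Cox10 controls was left out, with adjusted p from 0.151 to 0.238, while the log2 fold change stayed between -0.72 and -0.58 in all fits without 1 sample.

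Col11a1 (chr3:114030540-114220718, plus strand), the partner chain of type XI collagen, passed no test. Its mean in the Rptor line was 2284 ± 139.5 (SD, n = 3) in controls and 2319 ± 295 in deficient lungs, with overlapping samples. Tfam controls had 1771, 1708 and 1682 and Tfam-deficient lungs 1628, 1419 and 1548. The Tfam groups did not overlap, but the log2 fold change of -0.17 ± 0.066 (SE) missed the threshold (adjusted p = 0.206). In the Cox10 line Col11a1 was 2899, 2727 and 2736 in controls and 3136, 2928 and 2027 in deficient lungs, where replicate 3 was low and the other deficient samples lay above every control. The 95% intervals of the log2 fold change were -0.20 to 0.23 for Rptor, -0.31 to -0.025 for Tfam and -0.41 to 0.27 for Cox10, and the log2 fold change of Col11a2 in the same line lay below each of them.

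The balance between the type XI chain genes shifted in each line. Per kb of exon, Col11a2 made up 39.1% ± 2.38 (SD, n = 3) of the summed Col11a1 and Col11a2 reads in Rptor controls and 20.7% ± 2.97 in Rptor-deficient lungs. Tfam controls had 35.01% ± 1.66 and Tfam-deficient lungs 26.4% ± 1.40. In the Cox10 line the share was 31.3% ± 0.714 in controls and 23.6% ± 4.86 in deficient lungs. No deficient lung of any line had a share as high as a control of the same line. These shares restate the counts of both genes and were not tested on their own.

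Among the genes of type IX collagen, Col9a2 rose and Col9a1 and Col9a3 fell in the Rptor line, and Col9a2 rose and Col9a3 fell, close to the threshold, in the Tfam line. Col9a2 (chr4:121039385-121055322, plus strand) was the only cartilage gene of the 10 that rose. It had 1489, 1125 and 1589.5 normalised reads in Rptor controls and 4005, 3552 and 3401 in Rptor-deficient lungs. The deficient lungs held 2.61 times the control mean, with a log2 fold change of 1.39 ± 0.12 (SE) and adjusted p = 0.000178. Its values were 783, 842 and 953 in Tfam controls and 1207, 1112 and 1276 in Tfam-deficient lungs. This smaller rise, 0.48 ± 0.085 (SE) on the log2 scale, also passed (adjusted p = 0.00826), but not when all 18 samples shared a single fit (adjusted p = 0.0917). Cox10 controls had 1427, 1168 and 1320.2 and Cox10-deficient lungs 2059.8, 1539.6 and 2451. Every deficient sample lay above every control and the log2 fold change was 0.61 ± 0.16 (SE), but the difference did not pass (adjusted p = 0.197). It did pass in the fit of all 18 samples (adjusted p = 0.0352) and with DESeq2 on the whole reads (adjusted p = 0.00433).

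Col9a3 (chr2:180597790-180622189, plus strand) fell in the lines in which Col9a2 rose. In the Rptor line it was 816, 694 and 827 in controls and 409, 503 and 482 in deficient lungs, without overlap (log2 fold change -0.74 ± 0.11 (SE), adjusted p = 0.00143). Tfam controls had 426, 407 and 530.2 and Tfam-deficient lungs 346, 329.6 and 332. The groups did not overlap and the log2 fold change was -0.42 ± 0.11 (SE), just past the threshold (adjusted p = 0.0464). This call held in 1 of 6 fits without a sample, the fit without control replicate 2, and the adjusted p over these fits was 0.0365 to 0.145. It was also lost with library totals as scaling (adjusted p = 0.0539), without a filter (0.0666), with all 18 samples in a single fit (0.0689) and in edgeR (0.0528). In the Cox10 line the groups overlapped, at 496, 402 and 479.7 in controls and 535, 420.3 and 495 in deficient lungs (0.072 ± 0.12 (SE), adjusted p = 0.810). The 3′ end of Col9a3 overlaps Tcfl5 on the other strand by 234 bases, exon included. Whether reads were counted by strand is not given in the sources used here, so Col9a3 could hold some Tcfl5 reads.

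Col9a1 (chr1:24177610-24252684, plus strand) was the lowest of the type IX genes per kb. Rptor controls had 463, 412 and 468 and Rptor-deficient lungs 364, 347 and 339.9. The groups did not overlap and the gene fell by a log2 fold change of -0.35 ± 0.092 (SE) (adjusted p = 0.0189), a call that was lost without control replicate 1 or 3 or deficient replicate 2 or 3, with a highest adjusted p of 0.0743. In the other lines the samples overlapped. For the Tfam line the log2 fold change was -0.21 ± 0.15 (SE) (adjusted p = 0.517; -0.32 to -0.063 without 1 sample), and for the Cox10 line 0.18 ± 0.096 (SE) (adjusted p = 0.454), and neither passed.

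**Figure D2:**
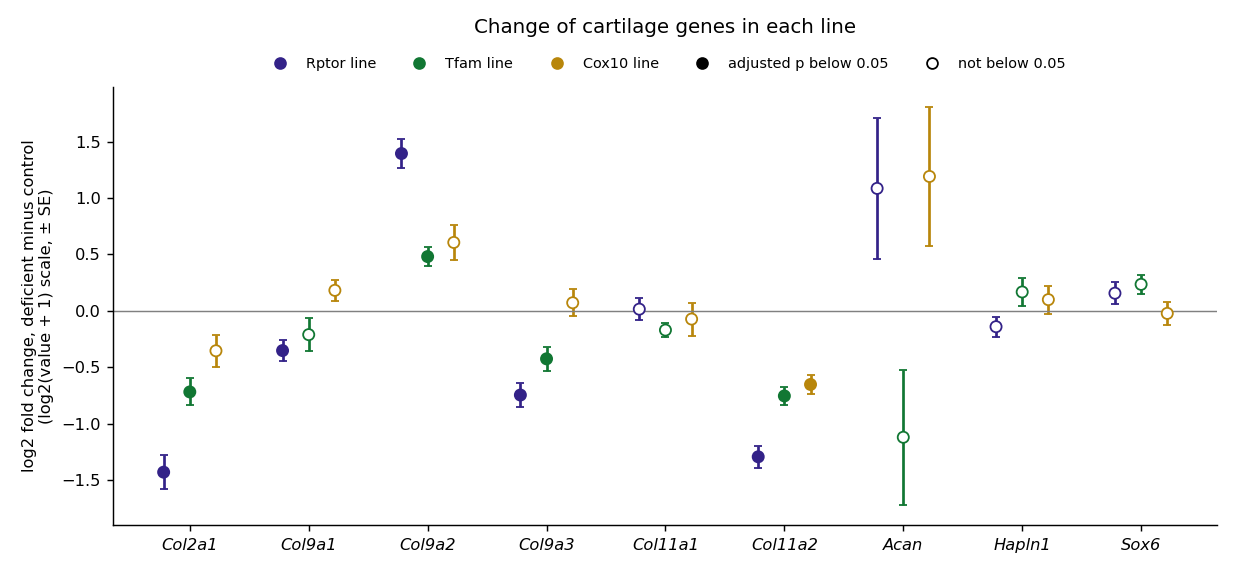
Log2 fold change (vertical axis, deficient minus control, bars ± SE) of the 9 cartilage genes that were tested, by line. Filled points had an adjusted p below 0.05. Col11a2 was below 0 and filled in all 3 lines, Col9a2 was above 0 in all 3, and Acan had the widest bars.

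The makeup of the type IX reads differed between control and deficient lungs of every line. Per kb of exon, Col9a2 made up 61.4%, 58.2% and 62.6% of the summed type IX reads in the Rptor controls and 87.9%, 85.2% and 85.1% in the Rptor-deficient lungs. Tfam controls had 60.7%, 63.8% and 59.8%, and Tfam-deficient lungs 73.2%, 73.99% and 74.7%. In the Cox10 line the share was 68.7%, 68.7% and 68.03% in controls and 74.4%, 72.4% and 78.9% in deficient lungs. The share of Col9a2 was higher in each deficient lung than in any control of its line. Within controls of a line it varied little, with an SD of 2.28 percentage points for Rptor, 2.09 for Tfam and 0.405 for Cox10. The share of Col9a3 was lower, with 27.3% ± 1.38 (SD, n = 3) in Rptor controls against 8.87% ± 1.43 in deficient lungs, 26.01% ± 1.05 against 16.7% ± 1.001 for Tfam and 19.4% ± 0.440 against 14.7% ± 1.68 for Cox10. The shares of Col9a1 were 11.97% ± 0.910 and 5.05% ± 0.159, 12.53% ± 1.05 and 9.33% ± 0.830, and 12.1% ± 0.1002 and 10.03% ± 1.70 in the same order. The shares restate the counts of the 3 genes and were not tested. In the Cox10 line Col9a1 and Col9a3 themselves had log2 fold changes above 0, so that their lower shares there follow from the higher Col9a2.

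**Figure D3:**
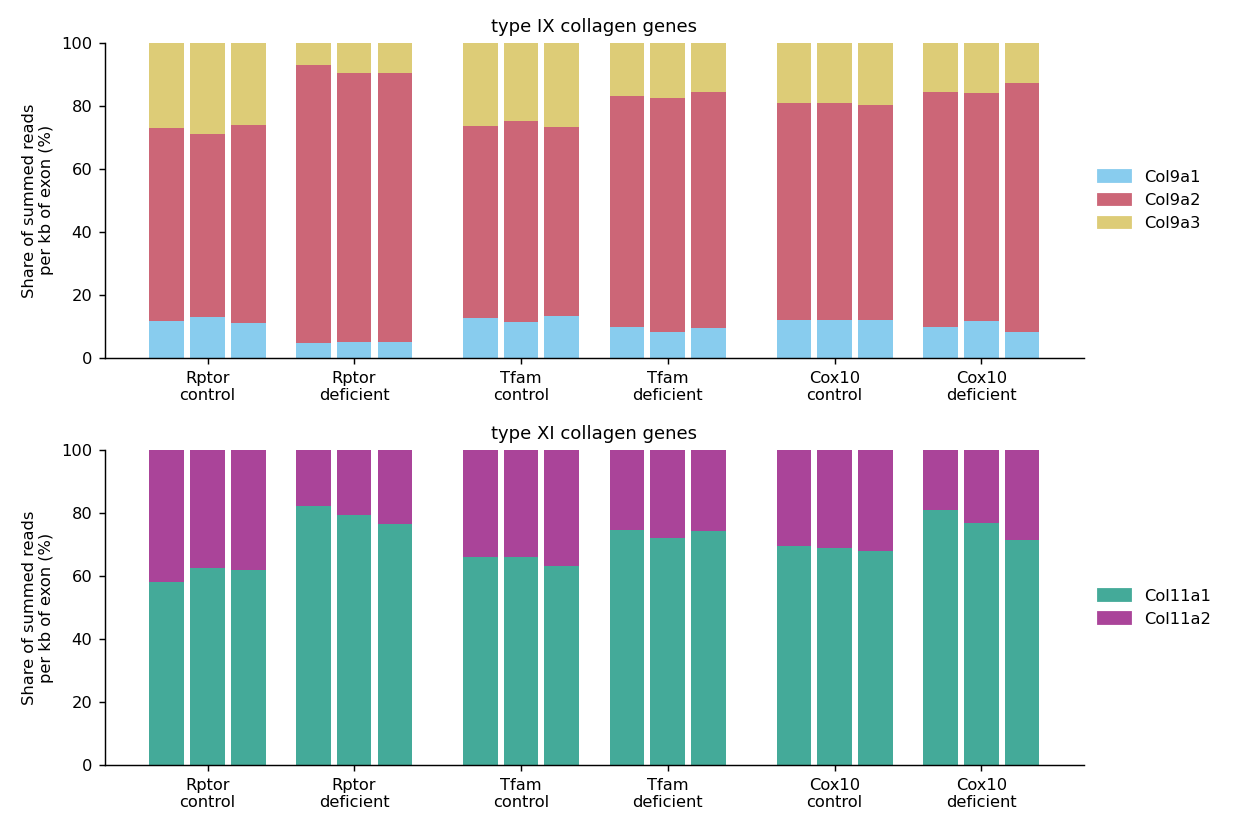
Share (vertical axes, percent) of each gene in the summed normalised reads per kb of exon of the type IX genes (upper panel) and of Col11a1 with Col11a2 (lower panel), a bar for each lung, in the order of replicates 1 to 3 within a group. The Col9a2 band was widest in Rptor-deficient lungs, at 85.1% to 87.9%, and the Col11a2 band was narrower in the deficient lungs of every line.

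The ratio of Col9a2 to Col2a1 set the rising gene against the main fibril gene. In normalised reads it was 0.548 ± 0.0330 (SD, n = 3) in Rptor controls and 3.89 ± 0.401 in Rptor-deficient lungs. Tfam controls had a ratio of 0.393 ± 0.0456 and Tfam-deficient lungs 0.911 ± 0.174, and in the Cox10 line it was 0.339 ± 0.0250 and 0.704 ± 0.310. The spread among Cox10-deficient lungs was wide, from 0.415 to 1.03, with replicate 2 lowest and replicate 3 highest. The summed type IX reads per kb were 743 ± 104 and 1369.9 ± 92.5 in control and deficient lungs of the Rptor line, 453 ± 53.99 and 523 ± 34.1 for Tfam and 616 ± 61.6 and 862 ± 161 for Cox10.

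Hapln1 (chr13:89539796-89611652, plus strand), which encodes the link protein of aggrecan aggregates, stayed within a narrow range, from 1615 to 2463 normalised reads over all 18 lungs. Its groups overlapped in every line. Deficiency went with a log2 fold change of -0.14 ± 0.087 (SE) for Rptor (adjusted p = 0.245), 0.17 ± 0.12 (SE) for Tfam (adjusted p = 0.537) and 0.0998 ± 0.12 (SE) for Cox10 (adjusted p = 0.741). Its 95% intervals were -0.34 to 0.059, -0.11 to 0.44 and -0.19 to 0.39 in the same order.

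Sox6 (chr7:115470872-116038796, minus strand), the only transcription factor of the 10, ranged from 597 to 864. It had 699, 708 and 597 in Tfam controls and 821, 744 and 789.8 in Tfam-deficient lungs. These did not overlap, yet the log2 fold change of 0.24 ± 0.083 (SE) did not pass (adjusted p = 0.165). The changes in the Rptor line (0.16 ± 0.099 (SE), adjusted p = 0.251) and the Cox10 line (-0.022 ± 0.0997 (SE), adjusted p = 0.937) were smaller, and the samples overlapped.

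Acan (chr7:79053483-79115099, plus strand) had 2 to 63 reads per sample. Rptor controls had 2.99, 6.99 and 17.9 normalised reads and deficient lungs 10.2, 33.7 and 13.8. Tfam controls and deficient lungs had 10.2, 63.7 and 37.01 and 16.9, 5.96 and 20.5, and those of the Cox10 line 12.9, 2.02 and 5.996 and 21.95, 8.04 and 15.8. The samples overlapped in every line, and the log2 fold changes were 1.09 ± 0.62 (SE), -1.12 ± 0.60 (SE) and 1.19 ± 0.61 (SE), with adjusted p of 0.207, 0.375 and 0.445. Leaving out 1 sample gave 0.54 to 1.67 for Rptor, -1.84 to -0.57 for Tfam and 0.62 to 1.56 for Cox10, where only 3 of the 6 such fits held Acan, since it failed the filter in the others. At this depth no difference in Acan was detectable. Matn1 (chr4:130944385-130955475, plus strand) did not reach the filter in any line. It was at 0 in all Rptor controls and all Cox10-deficient lungs, and its highest value was 4.94, in Rptor-deficient replicate 3. No fold is given for Matn1, since it was above the floor of 3 reads in that sample alone.

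Counted together, 9 of the 10 genes were tested in each line. In the Rptor line 1 rose and 4 fell, beside 34.8% of all 14937 genes tested that passed in that line, 16.6% higher and 18.2% lower. The Tfam line had 1 that rose and 3 that fell, beside 4.66% of 15050 genes, 2.03% higher and 2.63% lower. The Cox10 line had 0 that rose and 1 that fell, beside 0.475% of 14934 genes, 0.141% higher and 0.335% lower. Without adjustment, p was below 0.05 for 5, 6 and 3 of the 9 genes of the Rptor, Tfam and Cox10 tables, beside 45.6%, 17.4% and 13% of all genes tested. Samples of both genotypes were fully apart for 5 genes in the Rptor line, where this held for 50.3% of all genes tested, for 6 in the Tfam line against 22.8%, and for 3 in the Cox10 line against 21.4%. The 3 of the Cox10 line were Col2a1, Col9a2 and Col11a2. A count over so few genes says nothing of a shared direction. The 10 genes were chosen with earlier results of these data known, so these counts are no test of enrichment. The median log2 difference of all 10 was -0.062 for Rptor, -0.19 for Tfam and 0.025 for Cox10, and over the 9 tested it was -0.14, -0.21 and 0.072, beside medians of 0.0082, 0.000949 and 0.00136 over all genes tested.

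The size of the change was then compared between lines in a model of all 18 samples. Against the Tfam line, the Rptor effect was larger for Col9a2, with a difference in log2 fold change of 0.91 ± 0.20 (SE, adjusted p = 0.00946), and for Col11a2, with -0.54 ± 0.12 (SE, adjusted p = 0.0103). These were 2 of the 9 genes tested, beside 11.2% of all 14548 genes. Col2a1 narrowly missed the threshold in this pair, at -0.71 ± 0.23 (SE, adjusted p = 0.0541). It passed with the replicate number as a block (adjusted p = 0.0395), although the Tfam numbers are not taken as pairs. Against the Cox10 line, 4 of 9 genes differed, beside 7.49% of all genes. Col2a1 differed by -1.08 ± 0.23 (SE, adjusted p = 0.00792), Col9a3 by -0.82 ± 0.17 (SE, adjusted p = 0.00646) and Col11a2 by -0.64 ± 0.12 (SE, adjusted p = 0.00367). Col9a2 differed by 0.79 ± 0.20 (SE, adjusted p = 0.0248), a call that was lost without Rptor control replicate 2, Rptor deficient replicate 1, Cox10 control replicate 1 or 3, or Cox10 deficient replicate 2, with adjusted p of 0.0565 to 0.0734. For Col9a1 the difference of -0.53 did not pass (adjusted p = 0.0786), but it passed without Tfam control replicate 3 (0.0401) and under the block (0.0231). The block pairs samples by number in every line, and the numbers of Tfam and Cox10 samples are not taken as pairs. Fits without 1 sample called 3 to 5 of the 9 genes in this pair. Between the Tfam and Cox10 lines limma called 0 of 9 genes, with 3 at an unadjusted p below 0.05 (4.56% of all genes), beside 0.055% of all genes that were called. For Col11a2 the interval of the Tfam minus Cox10 difference was -0.36 to 0.16, and for Col9a2 it was -0.56 to 0.31. Both comparisons with Rptor rest on the same 6 Rptor lungs, so the Col9a2 and Col11a2 calls in both are not independent of each other.

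Other genes with known roles in cartilage were followed in lists, and which lung cells held their RNA was not measured. The counts stand beside 16.6% higher and 18.2% lower of all genes in the Rptor line and 2.03% and 2.63% in the Tfam line. Of 15 further cartilage matrix genes, 13 were tested in the Rptor line, where 7 fell and 0 rose. Of the 10 tested in Tfam lungs 2 fell. For Cox10 limma called 0 of 11, with 3 at an unadjusted p below 0.05, beside 13% of all genes. The median log2 difference of the tested genes was -0.32, -0.40 and -0.018 for Rptor, Tfam and Cox10 deficiency. Fmod, which encodes a small proteoglycan that binds collagen fibrils, was 12811, 10708 and 11141 in Rptor controls and 6068, 6729 and 8795 in deficient lungs, and fell by a log2 fold change of -0.70 ± 0.13 (SE) (adjusted p = 0.00427). It fell as well in Tfam-deficient lungs, with -0.82 ± 0.065 (SE) (adjusted p = 5.04e-05), while the Cox10 change of -0.66 ± 0.18 (SE) did not pass (adjusted p = 0.232). Matn4, a relative of Matn1, fell in the Rptor line, from 977, 968 and 1067 to 269, 391 and 284 (-1.69 ± 0.14 (SE), adjusted p = 0.000120). Its log2 fold changes in the Tfam (-0.24) and Cox10 (-0.27) lines did not pass. Cnmd, which encodes the cartilage glycoprotein chondromodulin, fell in the Rptor line (-0.68 ± 0.11 (SE), adjusted p = 0.00270) and the Tfam line (-0.67 ± 0.15 (SE), adjusted p = 0.0259). Matn3 fell in the Rptor line from 25.9, 24.98 and 28.8 to 9.18, 8.91 and 2.96 (adjusted p = 0.00798), at a low level.

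Of 7 regulators of chondrogenesis, 2 of 5 tested fell in the Rptor line and 1 of 6 in the Tfam line, 0 rose in either, and limma called 0 of 5 in the Cox10 line, with 0 at an unadjusted p below 0.05. The median log2 differences were -0.11, -0.27 and -0.088. Sox9, the master regulator of chondrocytes and also a gene of distal lung epithelium, passed no test, with a log2 fold change of -0.11 ± 0.12 (SE) for Rptor, -0.26 ± 0.092 (SE) for Tfam and -0.23 ± 0.10 (SE) for Cox10, and its samples overlapped in each line. Sox5, the partner of Sox6, was 545, 610.4 and 493 in Rptor controls and 435, 403 and 305 in deficient lungs and fell there (-0.54 ± 0.14 (SE), adjusted p = 0.0205). Its changes in the other lines were -0.28 ± 0.088 (SE) and -0.088 ± 0.10 (SE) and did not pass. Runx2, a factor of chondrocyte maturation and bone, fell in the Rptor line from 87.8, 94.9 and 100.5 to 46.9, 36.6 and 40.5 (-1.18 ± 0.17 (SE), adjusted p = 0.00156). It fell in the Tfam line as well (-0.66 ± 0.15 (SE), adjusted p = 0.0265), and the Cox10 change of -0.45 ± 0.23 (SE) did not pass. Trps1 and Wwp2 passed no test, and the log2 fold change furthest from 0 among them was -0.20, for Wwp2 in Tfam-deficient lungs. Runx3 was tested in the Tfam line alone, without a call, and Nkx3-2 reached the filter in no line.

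All 7 genes of chondroitin sulphate synthesis were tested. In the Rptor line 4 rose and 1 fell, beside 16.6% and 18.2% of all genes. In the Tfam line 2 rose, beside 2.03%. Limma called 0 in the Cox10 line, with 1 at an unadjusted p below 0.05, beside 13% of all genes. The medians were 0.22, 0.090 and -0.057 with Rptor, Tfam and Cox10 deficiency. Papss2, which makes the sulphate donor, rose from 219, 259 and 288 to 665, 597 and 727 in Rptor-deficient lungs (1.38 ± 0.12 (SE), adjusted p = 0.000185). It rose in the Tfam line too (0.49 ± 0.11 (SE), adjusted p = 0.0277), and in the Cox10 line its groups did not overlap but the change of 0.66 ± 0.20 (SE) did not pass. Csgalnact1, which starts the chondroitin chain, rose in the Rptor line (0.96 ± 0.13 (SE), adjusted p = 0.000891) and in the Tfam line (0.50 ± 0.081 (SE), adjusted p = 0.00479). Xylt1 and Slc26a2 passed no test. Of 8 genes of chondrocyte maturation, 4 were tested in the Rptor line and 1 fell. In the Tfam line 2 of 4 fell, beside 2.63% of all genes. Limma called 0 of 3 in the Cox10 line, with 2 at an unadjusted p below 0.05, beside 13% of all genes. The medians of the tested genes were 0.065, -0.18 and -0.21. Alpl, a phosphatase of mineralising matrix, was the gene that fell in the Rptor line (-0.92 ± 0.15 (SE), adjusted p = 0.00208), and Tfam-deficient lungs also had less (-0.65 ± 0.11 (SE), adjusted p = 0.00732). Pth1r, the receptor for parathyroid hormone-related protein, fell in the Tfam line (-0.24 ± 0.053 (SE), adjusted p = 0.0270), and its log2 fold changes of -0.099 for Rptor and -0.21 for Cox10 did not pass. Spp1 passed no test in any line.

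Of 19 signals and factors that pattern the airway mesenchyme, 6 were higher and 3 lower in the Rptor line, where 16.6% and 18.2% of all genes were, and 4 higher and 4 lower in the Tfam line. Limma called 0 of 19 in the Cox10 line, with 5 at an unadjusted p below 0.05, beside 13% of all genes. The medians lay near 0, at -0.057, -0.070 and -0.049. Fgf10, a growth factor of the distal mesenchyme, had the largest rise of the 19, at 1.87 ± 0.11 (SE) for Rptor (adjusted p = 2.51e-05) and 0.93 ± 0.071 (SE) for Tfam (adjusted p = 3.83e-05). Its change of 1.00 ± 0.16 (SE) with Cox10 deficiency narrowly missed the threshold (adjusted p = 0.0525). Rspo2 rose by 1.28 and 0.54 on the log2 scale and Bmp4 by 0.63 and 0.61 in the Rptor and Tfam lines, all past the threshold. Shh, an epithelial signal needed for tracheal cartilage and the locus of the Cre used here, fell in the Rptor line (-0.23 ± 0.069 (SE), adjusted p = 0.0303) and the Tfam line (-0.70 ± 0.099 (SE), adjusted p = 0.00220). With Cox10 deficiency its groups did not overlap either, and the log2 fold change of -0.70 ± 0.16 (SE) did not pass (adjusted p = 0.134).

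Of 8 genes of fibrous collagens and the perichondrium, 6 rose and 1 fell in the Rptor line. Beside them stood 16.6% higher and 18.2% lower of all genes. Limma called 0 of 8 in the Tfam line and 0 of 8 in the Cox10 line. At an unadjusted p below 0.05 there were 1 and 3 of the 8, beside 17.4% and 13% of all genes. The medians of the 8 were 0.85, 0.037 and 0.21. Col1a1 rose in the Rptor line from 46440.3, 44657 and 58069 to 119381, 108703 and 99982 (1.14 ± 0.11 (SE), adjusted p = 0.000247). Col1a2 (1.08) and Col5a2 (1.11) rose beside it. Tnmd, a tendon gene, fell there, from 24.9, 17.98 and 11.9 to 5.10, 4.95 and 5.93. In Rptor-deficient lungs Col2a1 and Col11a2 were thus lower in the same libraries in which fibrous collagen genes were higher.

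**Figure D4:**
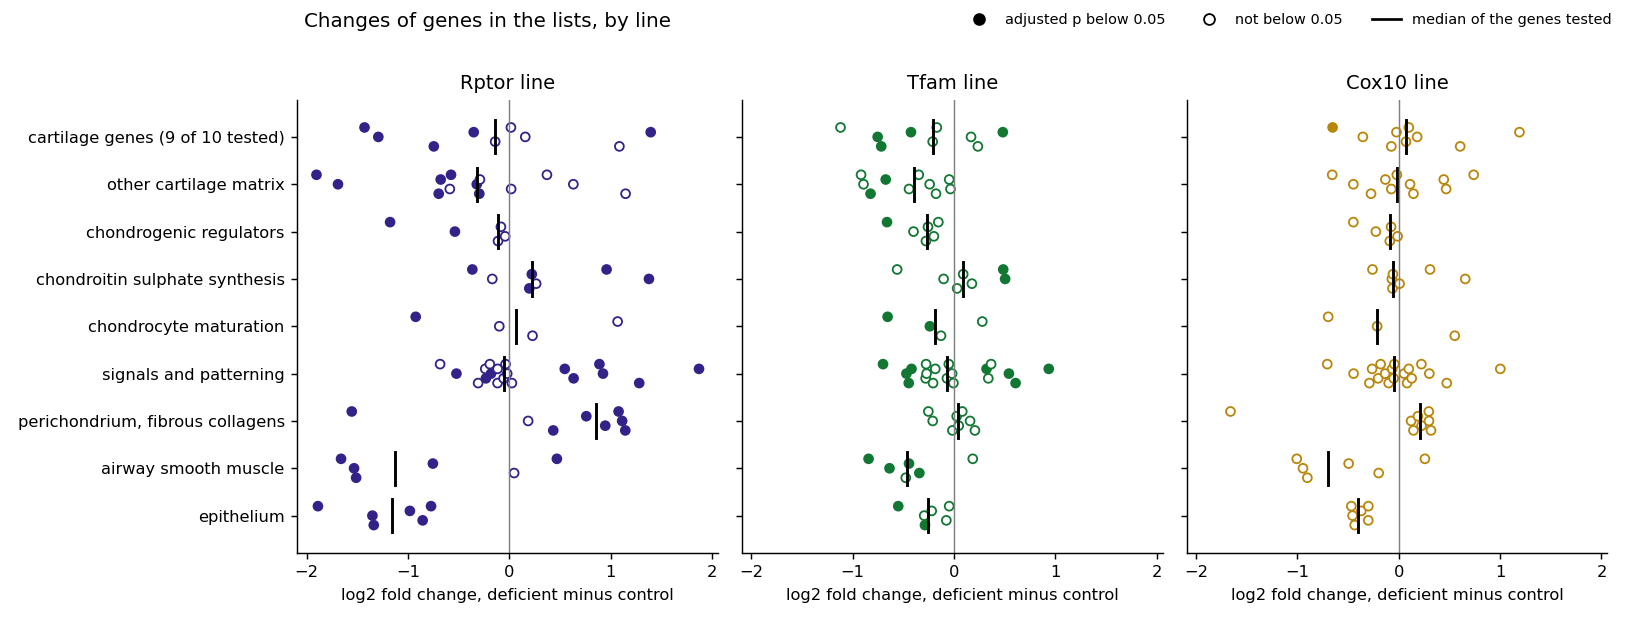
Log2 fold change (horizontal axes, deficient minus control) of each tested gene in the cartilage gene list and in the lists followed beside it, by line. Filled points had an adjusted p below 0.05 and black bars are medians, which in the Rptor line ran from -1.16 for epithelium to 0.85 for perichondrium and fibrous collagens.

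Markers of other cell types moved with genotype in the same libraries. The summed normalised reads of 6 epithelial markers were 26827 to 27818 in Rptor controls and 10524 to 13939 in deficient lungs, with all 6 called lower, beside 18.2% of all genes. For Tfam the sums were 24873 to 26236 and 19993 to 22533, with 2 of 6 called lower beside 2.63% of all genes, and for Cox10 20107 to 20502 and 13659 to 18369.8, with 0 called by limma and 6 at an unadjusted p below 0.05, beside 13% of all genes. Cdh1, the gene of E-cadherin, fell with log2 fold changes of -1.89 for Rptor and -0.55 for Tfam. The medians over the 6 were -1.16, -0.25 and -0.40. Of 6 airway smooth muscle markers 1 rose and 4 fell in the Rptor line (all genes, 16.6% and 18.2%), 4 fell in the Tfam line (all genes, 2.63%) and limma called 0 with Cox10 deficiency (5 with p below 0.05 before adjustment). Myh11, the smooth muscle myosin gene, fell with Rptor (-1.51) and Tfam deficiency (-0.84), and its log2 fold change of -0.94 with Cox10 deficiency did not pass. The part of these shifts in the cartilage gene results was not tested.

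Tissue that might adhere to a dissected lung was checked in the same way. Sums of 5 heart markers varied widely and overlapped between genotypes, at 479 to 2309 and 676 to 1636 in Rptor control and deficient lungs, 2868 to 7702 and 4917 to 14964 in those of Tfam and 451 to 4421 and 432 to 4304 in those of Cox10. Of these markers 1 of 5 rose in the Tfam line, beside 2.03% of all genes. Limma called 0 of 4 and 0 of 5 in the Rptor and Cox10 lines. At an unadjusted p below 0.05 there were 0 in both, beside 45.6% and 13% of all genes. The sums of 4 basal cell markers, which mark the epithelium of the trachea and main bronchi, were 171 to 254 and 80.6 to 154, 111 to 190.0 and 79.4 to 639, and 143 to 214 and 137 to 142 in the same order. They did not overlap in the Rptor and Cox10 lines. Krt15, which held most of these reads in Rptor controls, fell in the Rptor line (-2.05 ± 0.44 (SE), adjusted p = 0.00813), while the log2 fold changes of the other 3 there were above 0, at 0.73 for Trp63, 0.72 for Krt14 and 0.072 for Krt5, and did not pass. Krt15 was the only basal cell marker that limma called in any line, beside 18.2% of all genes called lower in the Rptor line. At an unadjusted p below 0.05 there were 1 of 4 for Tfam and 1 of 3 for Cox10, beside 17.4% and 13% of all genes. For skeletal muscle the sums of 5 markers lay between 87.1 and 420.1 in any lung, with 1 of 3 tested markers called higher and 1 lower in the Rptor line, where 34.8% of all genes were called, and 0 called by limma in the others, where 0 and 1 had an unadjusted p below 0.05. For bone the sums of 4 markers lay between 85.3 and 157, and for thyroid those of 4 between 9.88 and 37.1, and limma called 0 bone or thyroid markers in any line, with 1 bone marker at an unadjusted p below 0.05 in the Tfam line. Thymus markers summed to at most 7.11 in any lung, with Cd3e at 0 in all samples of 5 of 6 groups. The amount of trachea in each sample is not given in the sources used here, and its part in these results was not tested.

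Within groups, the genes showed little common variation from lung to lung. Deviations of log2 values from the mean of the own group were correlated over 18 lungs, as a description, since these points share libraries and 6 fitted means. Among the 28 pairs of the 8 well-measured genes the median r was -0.054. The highest was 0.70, for Col2a1 with Col11a1, followed by 0.67 for Col9a1 with Col9a3, 0.60 for Col9a2 with Col9a3 and 0.59 for Col9a1 with Col9a2. The 3 type IX genes thus varied together within groups, although Col9a2 departed from the others between genotypes. The lowest r was -0.69, for Col9a1 with Hapln1. By the rule for the most similar genes, the 10 closest to the mean of all 10 cartilage genes were Aig1, Ramp1, Ctsk, Zcchc5, Olfml2a, Efemp1, Megf6, Fbln5, Eno3 and Agtr2, with r from 0.84 to 0.91 over 18 lungs among 12937 genes. The mean itself had an r of 0.87 with Acan. In an alternative chosen after seeing the data, without Acan and Matn1, the closest were Tubb2b, Slc25a4, Gpc3, Eif6, Plau, Lzts2, Sin3b, Ldhb, E4f1 and Ebf2, with r from 0.82 to 0.90, and 0 genes were shared between the lists.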

How the data were processed

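RNA-seq of 18 whole lungs of mouse embryos at 14.5 dpc was analysed, with 3 samples in each of 6 groups named by the sample titles. The study combined mutants of different litters. Whether a sample was a single lung is not given in the sources used here, so p-values measure the spread between these samples. RNA was extracted with TRIzol and an RNeasy kit and sequenced on a BGISEQ-500 according to the study, while the labels name an Illumina library protocol. The submitters' processing notes name mm10, Trim Galore, HISAT2, featureCounts and DESeq2, without versions. The authors deposited a table for each line with a normalised signal for each gene and sample, in which read counts were divided by a size factor, and the log2 fold changes, p-values and adjusted p-values of their own comparison, which were not used. Dividing by the step between values of a sample, 0.978 to 1.02, gave whole reads for 100% of values within 0.01 of a read, so whole reads were recovered (27675601 to 29704748 per sample). Between replicates the chi-square per gene was 4.11 to 31.8 over 18 pairs, above sampling noise, so no sample was counted as a repeat. Rows with a symbol that occurred more than once were left out.

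Values were tested as log2(value + 1) in limma 3.58.1 (R 4.3.3; lmFit, then eBayes with a trend), separately for each line with genotype as the only term, for genes with a value of at least 10 in at least 3 of 6 samples. Adjusted p is that of Benjamini and Hochberg over all genes tested, with a threshold of 0.05. The log2(value + 1) scale understates changes of low genes. Differences between lines were contrasts in a fit of all 18 samples, over 14548 genes tested in all 3 lines. The fit of a single line was tested on simulated counts, with the same spread setting for all genes and no litters or pairing. That test checks the code and not the calls made here. Lengths, positions and overlaps came from GENCODE M21 (GRCm38, the build of mm10) and promoters from RefSeq, which held windows for 8 of the 10 genes. Of the cartilage matrix list, 2 of 15 symbols were matched through RefSeq synonyms.

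The 10 genes and the lists beside them were chosen with earlier results of these data known. From each list at most 4 genes were named, those with the largest absolute mean of the 3 log2 fold changes among genes tested in every line, plus any chondrogenic regulator. The most similar genes were the 10 with the highest Pearson r with the mean of the cartilage genes over group-centred log2 values, among genes tested in all 3 lines with a mean of at least 50. Alternatives were scaling to library totals, trimmed mean of M-values, no filter, a mean of at least 50, a pseudocount of 0.1, a replicate block, all 18 samples in one fit, edgeR 4.0.16 (quasi-likelihood) and DESeq2 1.42.0 on the whole reads, and leaving out each sample. Replicate numbers come from the titles. Deviations of same-numbered samples from their group means correlated above 0.1 in all 3 pairs of the Rptor line (r = 0.22, 0.33 and 0.26), so that these numbers were taken to pair the samples, and the block changed no call of a cartilage gene there. Depth limits Acan and Matn1, and no labels give a batch.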

Additional observations from a re-analysis of the deposited data

Results flagged for a closer look

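The effect of deficiency on 4 cartilage genes differed between lines by the limma contrast over all 18 samples. Between the Rptor and Tfam lines, the difference in log2 fold change was 0.91 for Col9a2 and -0.54 for Col11a2. Between the Rptor and Cox10 lines it was -1.08 for Col2a1, 0.79 for Col9a2, -0.82 for Col9a3 and -0.64 for Col11a2. In the Rptor line each of these genes moved further from 0 than in the line it was compared with, and for Col9a3 the Cox10 value had the opposite sign (0.072, not past the threshold). The cause of these differences was not tested. Groups of 3 samples are too small for a check of single samples that stand apart.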

How the results depend on the processing

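Of 10 calls of a cartilage gene in a line, 7 were past the threshold in every alternative that kept all samples and 7 in every fit without 1 sample. The median log2 difference in the Rptor line moved to -0.25 with a mean of at least 50 as filter, which leaves 8 genes, and over fits without 1 sample it ran from -0.11 to -0.040 for Rptor, -0.25 to -0.099 for Tfam and -0.050 to 0.058 for Cox10. One fit of all 18 samples gave 2 calls for Tfam and 2 for Cox10, and DESeq2 gave 2 for Cox10. Under the replicate block Cox10 had 0 calls (Col11a2, adjusted p = 0.0566), and fits without 1 sample gave 0 to 1. Same-numbered samples did not all correlate for Tfam and Cox10 (means of r -0.12 and 0.23), so that numbers there are not taken as pairs. The block gave 3 genes whose effect differed between the Rptor and Tfam lines, with Col2a1 gained, and 5 between the Rptor and Cox10 lines, with Col9a1 gained, and it changed no other count of calls of cartilage genes. Over all genes, the Tfam line had 702 calls, against 408 with all 18 samples in one fit and 354 to 1113 without 1 sample. The Cox10 line had 71, against 317, 324 with DESeq2 and 3 to 255 without 1 sample. Signs of changes that passed no test turned in fits without 1 sample, whose log2 values ran from -0.069 to 0.12 for Col11a1 with Rptor, -0.0039 to 0.27 for Hapln1 with Tfam and, with Cox10 deficiency, -0.020 to 0.17 for Col9a3, -0.19 to 0.12 for Col11a1, -0.019 to 0.20 for Hapln1 and -0.079 to 0.064 for Sox6. The causes were not tested. Few reads limit Acan and Matn1.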
